A study of Mus musculus with 18 samples.

Results

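Small leucine-rich proteoglycans are secreted matrix proteins, and the transcripts of 10 such genes were followed in cultured mouse fibroblasts: Aspn, Lum, Dcn, Ogn, Omd, Fmod, Bgn, Prelp, Kera and Podn. The genes come from a list of family members, and each was read through the probe sets that the platform annotation assigns to it and to no other gene. All 10 listed genes were measured, by 10 probe sets, among 19938 genes tested. The samples were 18 RNA samples of wild type mouse embryonic fibroblasts, collected at 22, 26, 30, 34, 40 and 46 h after dexamethasone, with 3 samples and 1 array each at every time. All groups shared the genotype, the C57BL/6 background and a 2 h exposure to 100 nM dexamethasone, a synthetic glucocorticoid used to set the circadian clocks of cultured cells to a common phase. No untreated culture and no culture from before the exposure is among these 18 samples. The fibroblasts came from embryos at embryonic day 13, with 2 mice named as their source, and the wild type embryos were siblings of Bmal1-/- embryos. The medium is given as 5% NCS with 5% FBS in one label and as 10% FBS in another. The labels call the 3 samples of each time biological replicates without saying how their cultures were kept apart. The p-values therefore measure only the spread between these samples, which may be technical. The times span a single cycle of 24 h, so no rhythm could be seen to repeat, and time after dexamethasone and time in culture cannot be told apart.

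The core of these proteins is a curved run of leucine-rich repeats that binds collagen, and most members carry chondroitin, dermatan or keratan sulfate chains on it. They bind fibrillar collagens at the surface of the growing fibril and set its diameter and spacing, and several also bind transforming growth factor beta, bone morphogenetic proteins or cell surface receptors. By sequence they fall into classes: Aspn, Dcn and Bgn belong to class I, Lum, Fmod, Prelp, Kera and Omd to class II, Ogn to class III and Podn to class V. In embryonic fibroblasts decorin and biglycan are familiar products, whereas keratocan is best known from the corneal stroma and osteoadherin, the product of Omd, from mineralised tissue.

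Values are given as log2(intensity + 16) after quantile normalization, a scale on which 1 unit is a doubling of a bright signal and the change of a dim one is understated. A difference was called when its adjusted p, from limma with Benjamini-Hochberg adjustment over all 19938 genes, was under 0.05. Between 46 h and 22 h, 5 of the 10 genes rose (Aspn, Lum, Ogn, Fmod and Prelp) and 0 fell, and 0 had an unadjusted p under 0.05 with a lower value. Over all genes 2295 rose, a background of 11.5%, and 1939 fell, a background of 9.73%. Rises made up 54.2% of all calls in this comparison, 63.9% on the values as deposited and 36.1% after scaling the arrays to one median, so the balance of rises and falls over all genes rested on the scaling. Aspn, Lum, Ogn and Fmod were called as higher under each of these 3 scalings. The median difference of the 10 genes was 0.30, beside 0.03 over all genes.

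**Figure D1:**
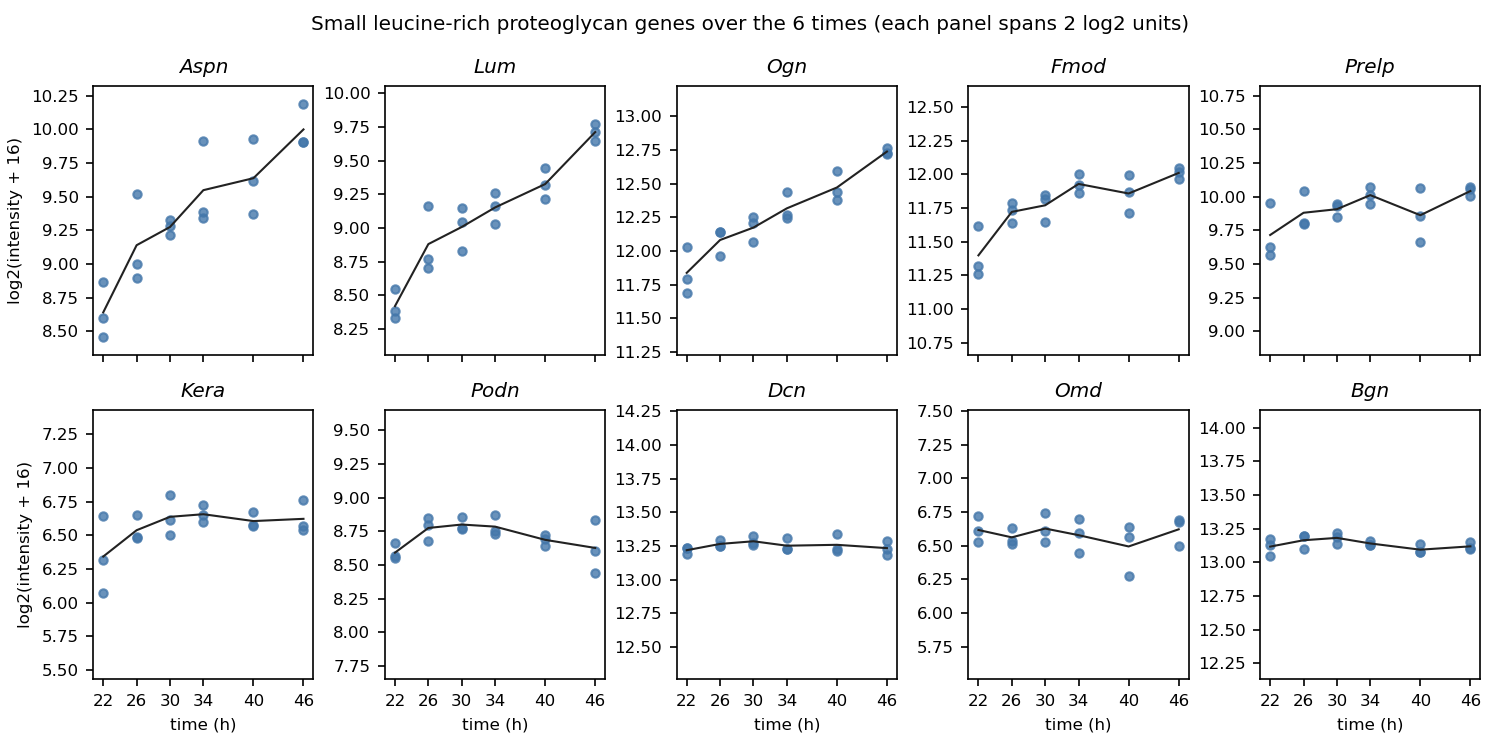
Normalized log2(intensity + 16) of the 10 genes against time in hours after dexamethasone; points are single arrays, lines join the means of 3 arrays, and every panel spans 2 log2 units around its own centre. Aspn, Lum and Ogn climb over the whole series (for Lum, 9.65 to 9.77 at 46 h against 8.33 to 8.55 at 22 h), while Dcn and Bgn stay within a narrow band.

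In class I, Aspn moved and its relatives Dcn and Bgn did not pass the test. Aspn encodes asporin, which binds collagen and was reported to restrain transforming growth factor beta in human cartilage cells. Its values were 8.46, 8.86 and 8.60 at 22 h, 9.002, 9.52 and 8.90 at 26 h, 9.29, 9.33 and 9.21 at 30 h, 9.34, 9.38 and 9.92 at 34 h, 9.37, 9.62 and 9.93 at 40 h, then 9.91, 9.90 and 10.18 at 46 h. Every array at 46 h was above every array at 22 h, and all 3 arrays at 34 h were too, whereas arrays at 34 h and 46 h overlapped. Aspn was 1.36 ± 0.17 higher at 46 h than at 22 h (log2 difference ± SE, adjusted p = 1.96e-05 by limma), the 7th largest rise among the 19938 genes. In deposited intensity it averaged 1005 ± 122 at 46 h and 389 ± 56.6 at 22 h (SD, n = 3 each).

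Dcn, the gene of decorin, a collagen-binding proteoglycan with a single chondroitin or dermatan sulfate chain, gave signals between 13.19 and 13.34 on the 18 arrays. Bgn, the gene of biglycan, which also binds Toll-like receptors when released from the matrix, gave signals between 13.05 and 13.22. Both lay near the top of the arrays' range, where the time groups overlapped for each of the 3 comparisons made here. The difference between 46 h and 22 h was 0.02 for Dcn, with a 95% interval of -0.09 to 0.12, and 0.00 for Bgn, with an interval of -0.10 to 0.10. Both intervals end far below the difference measured for Aspn. Of the 37 genes with a mean log2 signal from 13 up, 11 were called in this comparison and 9 of them were higher; whether these 2 probe sets follow a change in full at that brightness was not tested.

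In class II, Lum showed the smallest p of the whole family. Lumican, its product, carries keratan sulfate in the cornea and regulates collagen fibril spacing there and in skin. Lum stood at 8.38, 8.55 and 8.33 at 22 h, 8.70, 9.17 and 8.77 at 26 h, 9.15, 9.04 and 8.83 at 30 h, 9.03, 9.16 and 9.26 at 34 h, 9.32, 9.22 and 9.44 at 40 h, then 9.77, 9.71 and 9.65 at 46 h. The arrays at 46 h lay above those of each other time, and the mean climbed at every step, by 0.46 between 22 and 26 h and by 0.39 between 40 and 46 h. Lum was 1.29 ± 0.11 higher at 46 h than at 22 h (SE, adjusted p = 1.55e-07 by limma). Its deposited intensity averaged 815 ± 38.9 at 46 h and 328 ± 28.7 at 22 h (SD, n = 3 each).

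Fmod encodes fibromodulin, a keratan sulfate proteoglycan of tendon and other collagenous tissue that binds collagen and lysyl oxidase. Its values were 11.26, 11.62 and 11.32 at 22 h, 11.64, 11.74 and 11.79 at 26 h, 11.84, 11.82 and 11.65 at 30 h, 11.86, 11.92 and 12.005 at 34 h, 11.99, 11.71 and 11.87 at 40 h, then 11.97, 12.01 and 12.05 at 46 h. The 34 h and 46 h arrays were each all above the 22 h arrays, and the 34 h and 46 h arrays overlapped. Fmod was 0.61 ± 0.09 higher at 46 h than at 22 h (SE, adjusted p = 7.06e-05 by limma). At 34 h it was already 0.53 log2 units higher than at 22 h.

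Prelp, whose product binds heparan sulfate and collagen, followed with a smaller difference. It read 9.57, 9.95 and 9.63 at 22 h, 9.81, 9.79 and 10.04 at 26 h, 9.93, 9.94 and 9.85 at 30 h, 9.95, 10.01 and 10.07 at 34 h, 10.06, 9.66 and 9.86 at 40 h, then 10.00, 10.06 and 10.07 at 46 h. The 46 h arrays were all above the 22 h arrays, although the lowest at 46 h (10.00) was close to the highest at 22 h (9.95). Prelp was 0.33 ± 0.10 higher at 46 h than at 22 h (SE, adjusted p = 0.0261 by limma), a call that was lost when the arrays were scaled to one median (0.22, adjusted p = 0.0773) and when any of 4 single arrays was left out.

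Kera and Omd are the dim members of class II, with mean signals of 6.57 and 6.58 that lie under the lower quartile of all genes, 6.82. No detection call was used here, so it is not known whether these probe sets stood above background. Kera, the gene of keratocan, read 6.31, 6.64 and 6.07 at 22 h, 6.59, 6.65 and 6.72 at 34 h, then 6.76, 6.57 and 6.54 at 46 h. The groups overlapped, and the difference between 46 h and 22 h was 0.28 ± 0.11 (SE, adjusted p = 0.0795 by limma). It passed the threshold when replicate 2 of 22 h was left out (0.43, adjusted p = 0.00303 by limma). Over all single arrays left out it ranged from 0.14 to 0.43, with adjusted p up to 0.387 by limma. Omd lay between 6.28 and 6.74 on all 18 arrays, and its difference between 46 h and 22 h was 0.00, with a 95% interval of -0.19 to 0.20. Among the 5902 genes with a mean signal under 7, 3.9% were called as higher in this comparison.

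Ogn, the class III member, encodes osteoglycin, also called mimecan, which regulates collagen fibrils in skin and cornea. Its signals were 11.68, 12.03 and 11.79 at 22 h, 12.14, 12.14 and 11.96 at 26 h, 12.21, 12.07 and 12.25 at 30 h, 12.26, 12.24 and 12.44 at 34 h, 12.44, 12.38 and 12.60 at 40 h, then 12.72, 12.73 and 12.76 at 46 h. The 46 h arrays lay above those of every other time, and they were the tightest group for this gene (SD 0.02 at 46 h and 0.18 at 22 h, n = 3 each). Ogn was 0.90 ± 0.09 higher at 46 h than at 22 h (SE, adjusted p = 7.77e-07 by limma), and its deposited intensity averaged 6688 ± 85.2 at 46 h and 3743 ± 424 at 22 h (SD, n = 3 each).

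Podn, the class V member, encodes podocan, a collagen-binding protein first described in kidney. Podn read 8.55, 8.56 and 8.66 at 22 h, 8.80, 8.67 and 8.85 at 26 h, 8.77, 8.86 and 8.77 at 30 h, 8.75, 8.87 and 8.73 at 34 h, 8.70, 8.64 and 8.72 at 40 h, then 8.61, 8.84 and 8.44 at 46 h. The means were highest between 26 and 34 h, and the 46 h arrays spread to both sides of the 22 h arrays. Every array at 34 h was above every array at 22 h, with a difference of 0.19 that was not called (adjusted p = 0.134 by limma). The difference between 46 h and 22 h was 0.03, with a 95% interval of -0.13 to 0.20, and Podn passed neither the test over the 6 times (adjusted p = 0.175 by limma) nor that for a 24 h cosine (adjusted p = 0.136 by limma).

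The first and the last 12 h of the series were then compared, and these comparisons share the 34 h arrays. Between 34 h and 22 h, Aspn, Lum, Ogn and Fmod rose, 4 of 10 genes against a background of 5.34% higher, and 0 fell, against 4.1% lower over all genes. The differences were 0.91 for Aspn, 0.73 for Lum, 0.53 for Fmod and 0.48 for Ogn, with adjusted p between 0.000346 and 0.00267 by limma. Between 46 h and 34 h, 2 of 10 rose (Lum by 0.56 and Ogn by 0.42, adjusted p = 0.00616 and 0.00883 by limma), against a background of 1.06% higher, and 0 fell, against 2.51% lower. In both comparisons 0 of the 10 genes were lower at an unadjusted p under 0.05. Without replicate 2 of 34 h, or without replicate 3 of 46 h, Lum alone was called. Aspn was 0.45 higher at 46 h than at 34 h with a 95% interval of 0.09 to 0.81 (adjusted p = 0.189 by limma), and Fmod was 0.08 higher with an interval of -0.10 to 0.27. Whether Fmod differed from Lum or Ogn in this interval was not tested.

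**Figure D2:**
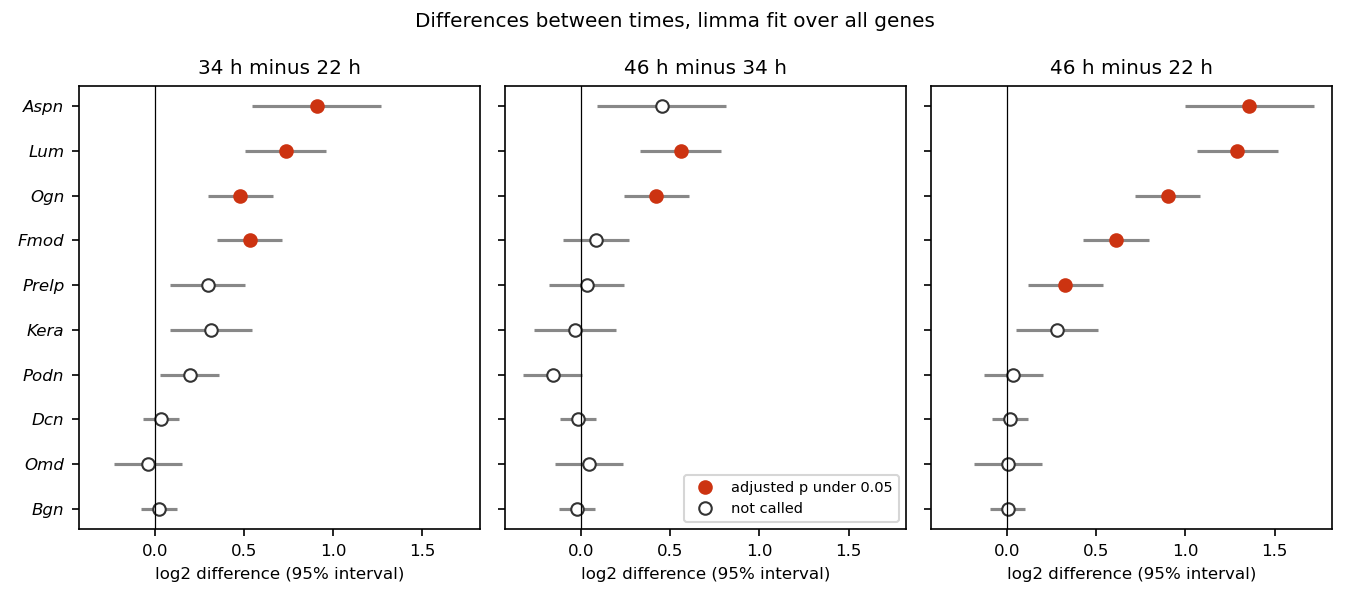
Log2 differences of the 10 genes between pairs of times, with 95% intervals from limma; filled points passed an adjusted p of 0.05 over all genes. The points of Aspn, Lum, Ogn and Fmod are filled at 34 h minus 22 h, and Lum and Ogn again at 46 h minus 34 h.

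In the test for any change over the 6 times, 4 of 10 genes passed (Aspn, Lum, Ogn and Fmod), against a background of 19.8% of all genes. Their time means were lowest at 22 h and highest at 46 h in each case, with adjusted p between 4.46e-06 for Lum and 0.00102 for Fmod by limma. A cosine with a period of 24 h passed for 0 of 10 genes by limma, against a background of 0.828%, and 1 gene, Podn, had an unadjusted p under 0.05. Its fitted amplitude was 0.10 with a peak at 31.6 h. A model with equal values 24 h apart gives 22 h and 46 h the same level, and for Aspn, Lum, Ogn, Fmod and Prelp these times differed.

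The rising genes lay beside genes of the same family that did not pass the test, in 3 clusters on chromosomes 1, 10 and 13 (order from RefSeq, GRCm38.p6). On chromosome 10 the order is Dcn, Lum, Kera and Epyc, and Lum alone of these passed, with 0.08 for Epyc (adjusted p = 0.506). On chromosome 13 it is Ecm2, Aspn, Omd and Ogn, where Aspn and Ogn rose on either side of Omd, and Ecm2 differed by 0.00 (adjusted p = 0.979). On chromosome 1, Prelp and Fmod are flanked by Optc, with a difference of -0.03 (adjusted p = 0.766), and by Btg2, an antiproliferative gene, which was 0.49 higher (adjusted p = 0.000121). Of the neighbours that did not pass, Kera, Epyc, Omd and Ecm2 were dim, with mean log2 signals of 6.57, 6.15, 6.58 and 6.73 under the lower quartile of 6.82 over all genes. All of these adjusted p are from the limma fit over all genes.

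RefSeq places Aspn, Omd and Ogn within the span of Cenpp, which encodes a centromere protein. Cenpp read 6.53, 6.21 and 6.56 at 46 h, against 7.67, 7.18 and 7.64 at 22 h. Every 46 h array was below every 22 h array, and Cenpp fell by 1.06 on the log2 scale (SE 0.13, adjusted p = 9.89e-06 by limma) where Aspn and Ogn within it rose. Its signal at 46 h was under the lower quartile of all genes, and which exons its probe set covers is not given in the sources used here.

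**Figure D3:**
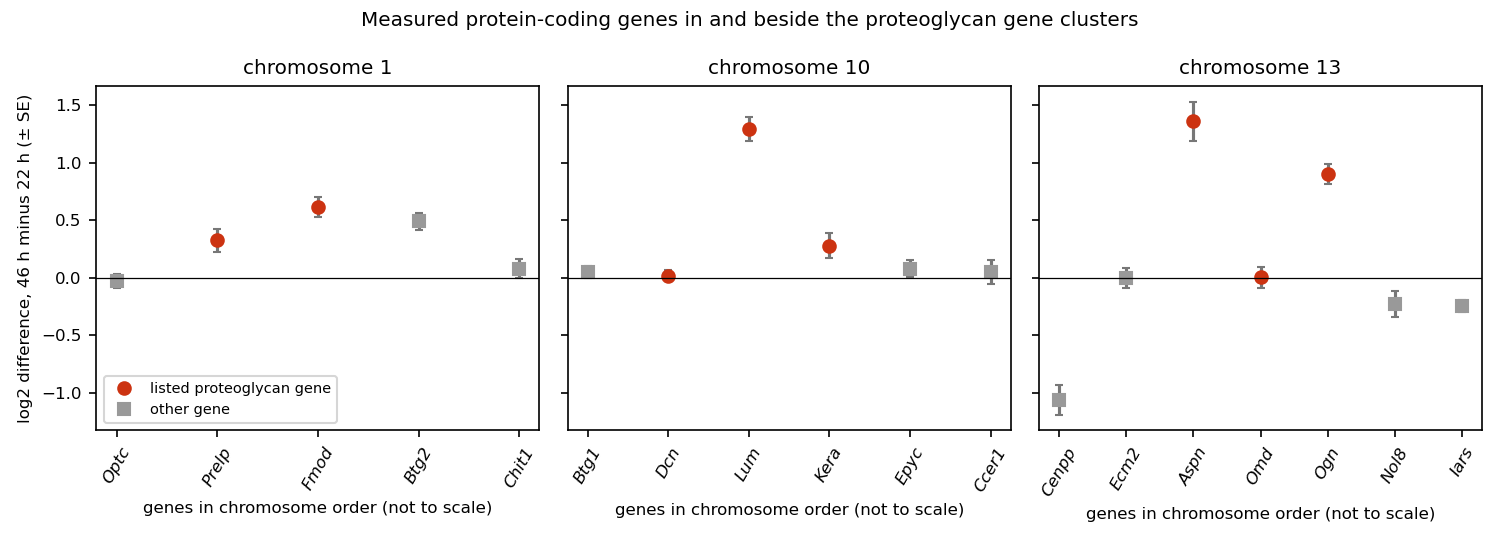
Log2 differences (46 h minus 22 h, ± SE) of measured protein-coding genes in RefSeq order along 3 chromosomes; circles are the listed proteoglycan genes and squares other genes, and spacing is not to scale. Aspn (1.36) and Ogn (0.90) flank Omd (0.00) on chromosome 13, and Cenpp, whose span holds all 3, is at -1.06.

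The promoters of the chromosome 13 genes are shown because a pair of them moved together and the gene between did not pass the test. Each is the 250 bases before the RefSeq transcript start in GRCm38.p6, read 5′ to 3′ on the + strand of chromosome 13, with motif matches in capitals: Aspn at chr13:49544193-49544442, Omd at chr13:49582212-49582461 and Ogn at chr13:49607765-49608014.
Aspn: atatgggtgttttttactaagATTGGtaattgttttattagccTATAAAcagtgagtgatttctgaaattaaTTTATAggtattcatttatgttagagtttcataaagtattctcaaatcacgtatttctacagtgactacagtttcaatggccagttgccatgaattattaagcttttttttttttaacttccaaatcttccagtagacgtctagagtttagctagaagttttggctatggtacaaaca
Omd: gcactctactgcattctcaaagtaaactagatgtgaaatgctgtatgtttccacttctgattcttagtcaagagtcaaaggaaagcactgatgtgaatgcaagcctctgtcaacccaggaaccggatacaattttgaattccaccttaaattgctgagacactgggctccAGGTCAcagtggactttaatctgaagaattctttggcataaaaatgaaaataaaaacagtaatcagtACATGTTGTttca
Ogn: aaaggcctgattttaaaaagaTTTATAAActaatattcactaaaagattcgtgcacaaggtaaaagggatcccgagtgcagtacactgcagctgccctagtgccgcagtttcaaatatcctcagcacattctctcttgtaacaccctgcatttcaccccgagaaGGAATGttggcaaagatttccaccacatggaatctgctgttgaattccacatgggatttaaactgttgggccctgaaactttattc
In Aspn the capitals mark TATAAA on either strand and CCAAT on the reverse strand. In Omd they mark AGGTCA and the spaced palindrome ACANNNTGT, and in Ogn overlapping TATAAA matches on both strands and GGAATG.

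The table held 32851 promoters, with entries for 8 of the 10 genes, 9 promoters in all, and none for Lum and Dcn. TATAAA, the letters of the TATA box, was in 12.4% of all promoters and in 2 of the 9, those of Aspn and Ogn. In both, the matches lay nearer the upstream end of the 250 bases than the transcript start. CACGTG, the E-box bound by the circadian activators, was in 6.02% of all promoters and 0 of the 9, and TTATGTAA, the D-box, in 0.819% and 0 of the 9. The half-site AGGTCA was in 14.0% of all promoters and in those of Omd and Podn, and the glucocorticoid receptor core ACANNNTGT in 5.84% and in Omd. CCAAT was in 33.9% of all promoters and in those of Aspn, Prelp and Kera, GGGCGG, the GC box, in 32.7% and in Bgn and Podn, and GGAATG, bound by TEAD factors, in 12.6% and in Ogn. TGANTCA, the AP-1 site, was in 6.75% and GTCTAGAC, a SMAD palindrome, in 0.167%, and neither was in any of the 9. Both strands were searched, and these are matches of letters in a window of 250 bases, not sites. GC content was 30.0% for Aspn, 38.4% for Omd and 42.0% for Ogn, against a median of 52.4% over all promoters, so all 3 were below the median, Omd included.

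Over the 18 arrays the rising genes followed similar courses, given here as a description in which the points share arrays and scaling and the time trend. Pearson's r was 0.94 for Aspn with Lum, Aspn with Ogn and Lum with Ogn, and 0.88 for Lum with Fmod and Fmod with Prelp. Outside the family, the genes most like Aspn were Fkbp14 (r = 0.975), Gulp1 (0.957) and Rgs2 (0.955). Those most like Lum were Pxk (0.972), Postn (0.971) and Igf1 (0.970), and those most like Ogn were Pi15 (0.979), Postn (0.979) and Col11a1 (0.977). Those most like Fmod were Itga11 (0.972), Mxd4 (0.969) and Dmpk (0.966). Fkbp14 and Col11a1 encode a collagen chaperone and a fibrillar collagen chain, Postn a matricellular protein that binds collagen, and Itga11 a collagen receptor subunit.

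Replicate 2 of 22 h and replicate 2 of 40 h lay at the ends of the main axis of variation within times, which held 33.8% of that variance over all genes. Replicate 2 of 22 h gave the highest 22 h value of Aspn, Lum, Ogn, Fmod, Prelp and Kera, and replicate 2 of 40 h the lowest 40 h value of Lum, Ogn, Fmod, Prelp, Kera and Podn. Without both arrays, 6 of the 10 genes rose between 46 h and 22 h, the sixth being Kera. Calls over all genes, higher and lower together, also grew, to 5103 from 4234 with all arrays.

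The genes that these proteins act with were counted in the same comparison of 46 h with 22 h, as lists from general knowledge. The background over all genes was 11.5% higher and 9.73% lower. The fibrillar collagens, the ligand of most of the family, rose in 10 of 11 measured genes with 0 falling and a median difference of 0.39, against 0.03 over all genes. Among them Col11a1 rose by 0.74, Col3a1 by 0.66, Col5a1 by 0.54 and Col27a1 by 0.39. Of 22 measured genes for collagen processing and crosslinking 11 rose and 2 fell, with a median of 0.12. Plod1 and P3h1, which hydroxylate lysine and proline in collagen, rose by 0.60 and 0.52, Adamts3, a procollagen peptidase, by 0.36 and Lox, lysyl oxidase, by 0.33.

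The enzymes that build the sugar chains are read against the same background of 11.5% higher and 9.73% lower. Of 7 genes for the linker that joins chain to core, 1 rose (Xylt1, by 0.17) and 1 fell (Pxylp1, a xylose phosphatase, with -0.54), and the median was 0.04. Of 16 chondroitin and dermatan sulfate genes 6 rose and 1 fell with a median of 0.15, and the 4 with the smallest p were the sulfotransferases Chst11 (0.45), Chst12 (0.37) and Ust (0.30) and the epimerase Dse (0.22). Of 9 keratan sulfate genes 1 rose (B4galt3, 0.31), and the median was 0.03, that of all genes.

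Of 14 proteases reported to cleave members of the family, 8 rose and 1 fell, with a median of 0.27. Over all genes 11.5% were higher and 9.73% lower. Htra1 rose by 0.72, Adamts1 by 0.57, Mmp14 by 0.54 and Mmp2 by 0.45. Of 27 receptors and growth factors that members bind, 8 rose and 5 fell against the same background, with a median of 0.07. The growth factors Bmp4 and Tgfb2 rose by 0.89 and 0.73 and the receptor Egfr by 0.51, whereas Met, a receptor for decorin, had -0.38.

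**Figure D4:**
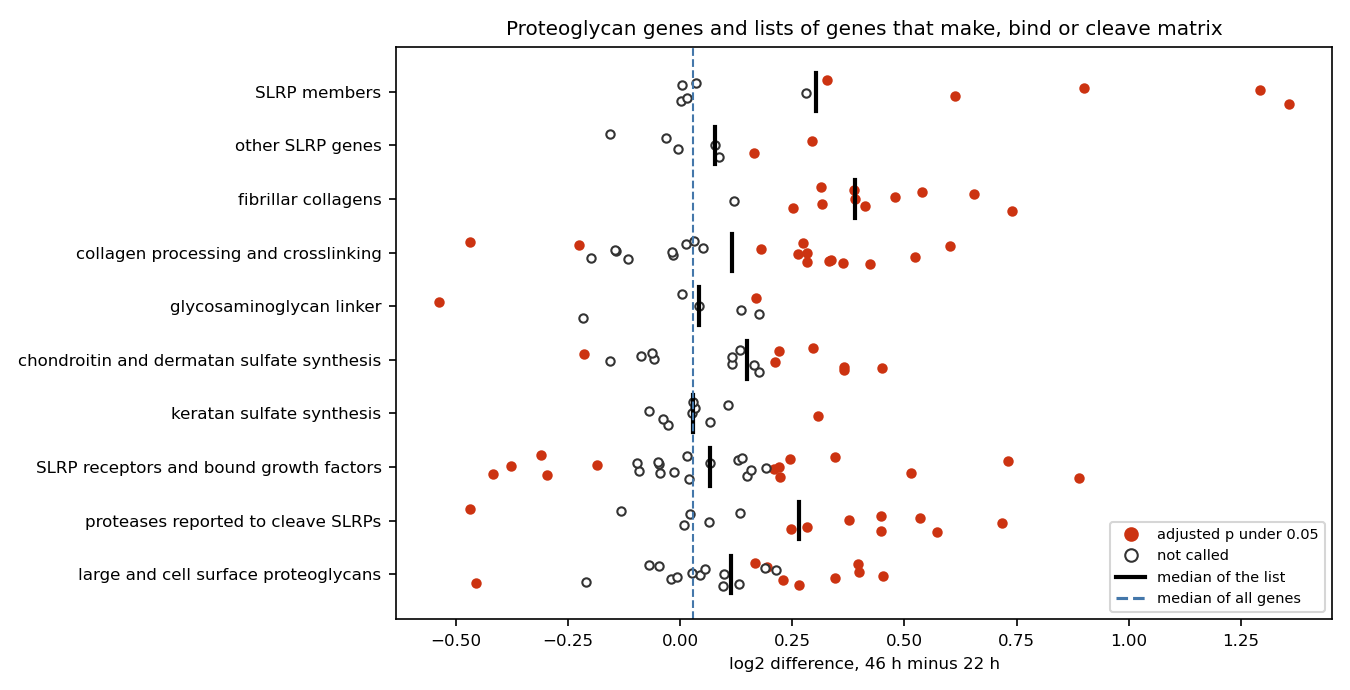
Log2 differences (46 h minus 22 h) of the 10 listed genes and of lists of genes that make, bind or cleave matrix; each point is a gene, filled where the adjusted p was under 0.05, bars are list medians, and the dashed line is the median of all genes (0.03). The fibrillar collagens lie almost wholly to the right of the line, and the keratan sulfate genes around it.

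Of 7 other measured genes of the family 2 rose, Nyx (0.29) and Chadl (0.17), and 0 fell by limma, with 0 lower at an unadjusted p under 0.05. The counts of this paragraph stand beside 11.5% higher and 9.73% lower over all genes. Of 22 large and cell surface proteoglycans 8 rose and 1 fell, with a median of 0.11. Gpc6, Srgn and Gpc4 were higher by 0.45, 0.40 and 0.35, and Cspg4 fell by 0.46.

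The array signals come from bulk RNA, in which fewer cells of a type and less RNA per cell cannot be told apart. Of 11 fibroblast markers 5 rose and 1 fell, with summed intensity of 58974 to 60604 at 46 h against 51361 to 54864 at 22 h. Those that rose were Col1a1, Col1a2, Col3a1, Pdgfra and Pdgfrb, and S100a4 fell (-0.50, adjusted p = 0.0059 by limma). Vim, Fn1, Thy1, Pdpn and Twist2 were not called. Thy1 and Pdpn were the dimmest of the 11 (mean log2 signals of 7.31 and 7.05), and the collagens on the list are also counted above. Of 5 corneal keratocyte markers 2 rose (Aldh1a1 by 1.09 and Ptgds by 0.69), with sums of 3356 to 4350 at 46 h against 1920 to 2118 at 22 h, although Kera, itself on that list, is dim. These sums mainly follow Aldh1a1, the brightest of the 5 (mean log2 signal 11.08, with Ptgds next at 8.17). Aldh3a1 and Chst5 differed by 0.00 and 0.11 and were not called (adjusted p = 0.977 and 0.41 by limma). Tendon markers rose in 2 of 6 with 0 falling (sums of 2271 to 2374 at 46 h and 1860 to 1910 at 22 h). The 2 were Col11a1 (0.74) and Fibin (0.36), while Scx had -0.15 without passing (adjusted p = 0.11 by limma). Cartilage markers rose in 4 of 9 with 1 falling (3018 to 3277 at 46 h and 2822 to 2915 at 22 h). The fall was that of Sox9 (-0.23, adjusted p = 0.00608 by limma). Bone markers rose in 0 of 5 (686 to 730 at 46 h and 583 to 661 at 22 h). Col11a1 and the cartilage marker Col2a1 are also among the fibrillar collagens counted above. Of the markers of other cell types, 2 of 7 rose for skeletal muscle, 1 of 7 for endothelium and 0 of 6 for adipocytes, with 0 falling, while 1 of 8 fell for macrophages, 2 of 7 for epithelium and 1 of 5 for neural cells, with 0 rising. All these marker counts stand beside 11.5% higher and 9.73% lower over all genes. Median signals were 7.60 for muscle, 6.65 for endothelium, 6.57 for adipocytes, 6.97 for macrophages, 7.22 for epithelium and 8.18 for neural markers, against 8.07 over all genes. All 23 measured G2/M genes, expressed in dividing cells, fell, with a median of -1.55 and sums of 13211 to 15522 at 46 h against 36142 to 43928 at 22 h. The part of these shifts in the rise of the proteoglycan genes was not tested.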

How the data were processed

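Total RNA of 18 samples was labelled and hybridised to Affymetrix whole-transcript arrays, as the labels' protocols describe. For each probe set and array the authors deposited a linear intensity. Affymetrix Expression Console 1.1 and PLIER 2.0 are named in the submitters' processing notes, with settings that are not given in the sources used. Of 35556 probe sets, 21789 had 1 gene symbol. The values were quantile normalized over all probe sets as log2(value + 16), and the probe set with the highest mean was kept for each of 999 genes with several, leaving 19938 genes. R 4.3.3 and limma 3.58.1 (lmFit and eBayes) fitted 6 time means, or a 24 h cosine, to all 18 arrays without covariates, with Benjamini-Hochberg adjustment. The number of arrays limits the precision. The fit was also run on simulated data, with noise drawn independently for every gene and array. Those data lacked the shared axis of variation within times described above. No pair of arrays held identical values. Alternatives covered the scaling, the added constant, filters, probe set choice, array weights, the threshold, a replicate block and leaving out arrays.

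The genes and lists were chosen with earlier results of these data known. All members are named, with up to 4 called genes of smallest p per pathway list, the 3 genes most correlated with each of the 4 most variable members, and genes beside members on the chromosome. Promoter sequences are from RefSeq (GRCm38.p6).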

Additional observations from a re-analysis of the deposited data

How the results depend on the processing

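Aspn, Lum, Ogn and Fmod kept their call at 46 h minus 22 h under all 29 alternatives, with log2 differences of 1.26 to 1.47, 1.18 to 1.36, 0.77 to 0.998 and 0.51 to 0.72. The number of the 10 genes called ranged from 4 to 6 for 46 h minus 22 h, 4 to 6 for 34 h minus 22 h, 4 to 6 for the test over 6 times, 1 to 2 for 46 h minus 34 h and 0 to 0 for the cosine when single arrays were left out. With array weights 7 genes passed the test over 6 times, and with arrays scaled to one median 1 gene (Podn) passed the cosine. Calls over all genes grew too. The test over 6 times was passed by 10765 genes with array weights, against 3957 in the main fit. The cosine was passed by 1125 genes with one median, against 165 in the main fit. The cause of these changes was not tested. Prelp lost its call at a threshold of 0.01, with one median, and without replicate 1 or 3 of 22 h or replicate 2 or 3 of 46 h (highest adjusted p 0.135, limma). Kera gained one on the values as deposited, with array weights, without replicate 2 of 22 h, and without both arrays at the ends of the within-time axis, an alternative added after seeing the data. In that order, calls over all genes were 6043, 8790, 4739 and 5103, against 4234 in the main fit.

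The uncalled differences near 0 changed sign. Bgn was -0.007486 as deposited, -0.07377 with one median, -0.02063 with weights and -0.03353 without both arrays; Dcn was -0.03066 with one median and -0.0004309 without both arrays. Podn was -0.03686 with one median and -0.07111 with weights, and Omd -0.039 with weights and -0.0002329 without both arrays. Leaving out single arrays gave ranges of -0.01192 to 0.03975 for Dcn, -0.04105 to 0.06761 for Omd, -0.03397 to 0.03076 for Bgn and -0.0702 to 0.13 for Podn. The filter on dim genes left out Omd and Kera, which have no value there.

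With the replicate number as a block (replicate block), 5, 4, 4, 2 and 0 genes were called in 46 h minus 22 h, the test over 6 times, 34 h minus 22 h, 46 h minus 34 h and the cosine, and Aspn differed by 1.358. Residual correlations between arrays of one number ranged from -0.559 to 0.495, so the numbers were not taken as pairs.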
